A study of Mus musculus with 60 samples.

Results

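Transcripts of the phase II conjugation enzymes were measured in 60 mouse kidneys in which the clock gene Bmal1 (Arntl) was intact or had been deleted from the renal tubule. The enzymes comprised the glutathione S-transferases (Gst and Mgst), the UDP-glucuronosyltransferases (Ugt1, Ugt2 and Ugt3) and the sulfotransferases (Sult), chosen by gene symbol with pseudogenes left out. Of 67 genes with such a symbol, 39 reached 1 CPM, a count scaled to the size of its library, in at least 1 kidney and were analysed, among 15546 genes retained in all. They were 20 of 25 Gst genes, 13 of 21 Ugt genes and 6 of 21 Sult genes. The 28 genes left out stayed under 1 CPM in every kidney, some such as Sult2a1 and Ugt2a1 without a single read and Ugt1a2 and Ugt1a8 closest to the minimum.

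Control mice were Bmal1lox/lox and cKOt mice were their littermates with the genotype Bmal1lox/lox/Pax8-rtTA/LC1 Cre, all males on a C57BL/6J background. Both genotypes, then 8 weeks old, drank doxycycline at 2 mg/ml for 2 weeks, so that the drug was common to both groups and the Cre recombinase was not. Per the study, kidneys were taken 4 weeks after the drug was stopped. Cre was switched on by the drug where Pax8-rtTA is made, along the tubule, and other cells of the kidney kept their Bmal1. For each genotype, 5 mice were analysed at each of 6 times of a 12 hour light/dark cycle. The times were Zeitgeber time (ZT) 0, 4, 8, 12, 16 and 20, with light from ZT0. Per the study, 6 mice were taken per group and 5 were kept. They were selected by RNA quality and by how near each lay to its group in plots of the expression data. Libraries held 17791420 to 20906706 counts on genes. The label of the tissue is renal tubule, but markers of the endothelium and of fibroblasts were measured as well as all 8 markers of the proximal tubule. In bulk tissue, fewer cells of a type and less RNA per cell cannot be told apart. Arntl itself, counted over all of its exons, fell from 48.4 ± 10.2 CPM at ZT0 to 2.73 ± 0.825 CPM at ZT8 in control mice (SD, n = 5), whereas it stayed between 17.4 and 24.4 CPM in the group means of cKOt mice.

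Phase II enzymes attach a polar group to drugs, hormones, bilirubin, lipid peroxidation products and other small molecules, so that the kidney and the liver can export them. Gst enzymes use glutathione, Ugt enzymes use UDP-glucuronic acid, and most Sult enzymes use the sulfate donor PAPS. In many tissues, Gst genes respond to the oxidant sensor NFE2L2 through antioxidant response elements, and several detoxification genes follow the clock output factors DBP, TEF and HLF, which bind D-boxes. The proximal tubule is the main site of this chemistry in the kidney.

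Motifs of these factors were sought on both strands in RefSeq promoters (GRCm38.p6, from 250 bases before to 50 bases after a start), which covered 35 of the 39 members with 46 promoters. The E-box CACGTG, the site of BMAL1 and its partner CLOCK, was in 0 of the 46 promoters, against 7.15% of 32851 promoters of all genes. The D-box core TTANGTAA was in 2 (2.32% of all promoters), those of Sult1a1 and Ugt1a9. The antioxidant response element core TGACNNNGC was in 4 (12.4% of all promoters), those of Gsta3, Gstm5, Gstm7 and Mgst1. No hit of one motif overlapped a hit of another in the sequences shown. Up to 250 bases before the start, without bases annotated as exon, are shown for Gsta3, the member with the largest genotype difference, and for the members with a D-box core, with the motif in capitals. They lie at chr1:21240335-21240584 on the plus strand for Gsta3, at chr7:126676433-126676668 on the minus strand for Sult1a1 and at chr1:88070529-88070778 on the plus strand for Ugt1a9.
Gsta3: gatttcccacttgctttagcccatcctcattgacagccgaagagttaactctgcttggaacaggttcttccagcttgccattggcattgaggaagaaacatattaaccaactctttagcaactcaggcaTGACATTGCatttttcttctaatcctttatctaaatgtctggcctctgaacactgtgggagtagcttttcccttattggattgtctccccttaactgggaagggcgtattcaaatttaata
Sult1a1: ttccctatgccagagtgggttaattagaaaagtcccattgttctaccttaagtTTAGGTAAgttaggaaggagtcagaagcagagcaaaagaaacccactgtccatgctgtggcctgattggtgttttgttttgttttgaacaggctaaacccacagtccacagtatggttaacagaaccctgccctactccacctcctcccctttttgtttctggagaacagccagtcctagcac
Ugt1a9: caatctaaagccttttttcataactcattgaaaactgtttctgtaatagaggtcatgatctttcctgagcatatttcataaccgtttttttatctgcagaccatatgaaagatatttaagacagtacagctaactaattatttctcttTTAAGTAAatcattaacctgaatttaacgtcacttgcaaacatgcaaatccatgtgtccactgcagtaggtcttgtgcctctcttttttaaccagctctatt
The first base of the motif lay 121 bases before the start in Gsta3, 197 in Sult1a1 and 102 in Ugt1a9. A match of letters describes the window and is no evidence of binding.

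To ask how the deletion changed the level of each enzyme, the mean over 6 time points was compared between genotypes with the quasi-likelihood test of edgeR, with p values adjusted over all 15546 genes. Of the 39 members, 26 differed (adjusted p below 0.05), against 50% of all genes tested. Higher in cKOt mice were 11 (26.8% of all genes) and lower were 15 (23.2% of all genes). A difference of at least 1.5-fold was found in 5 members, namely Gsta3, Gstm7, Gstp2, Ugt1a9 and Ugt2b38, against 4.82% of all genes. The median size of the log2 fold change, regardless of sign, was 0.23 over the members and 0.10 over all genes. A difference between the families was not tested. In the Gst family, 7 members rose and 7 fell, with a median log2 fold change of -0.0043. In the Ugt family, 2 rose and 8 fell, with a median of -0.30. In the Sult family, 2 rose and 0 fell by edgeR or limma (2 at an unadjusted p below 0.05), with a median of 0.030, and the median of all genes was 0.012.

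**Figure D1:**
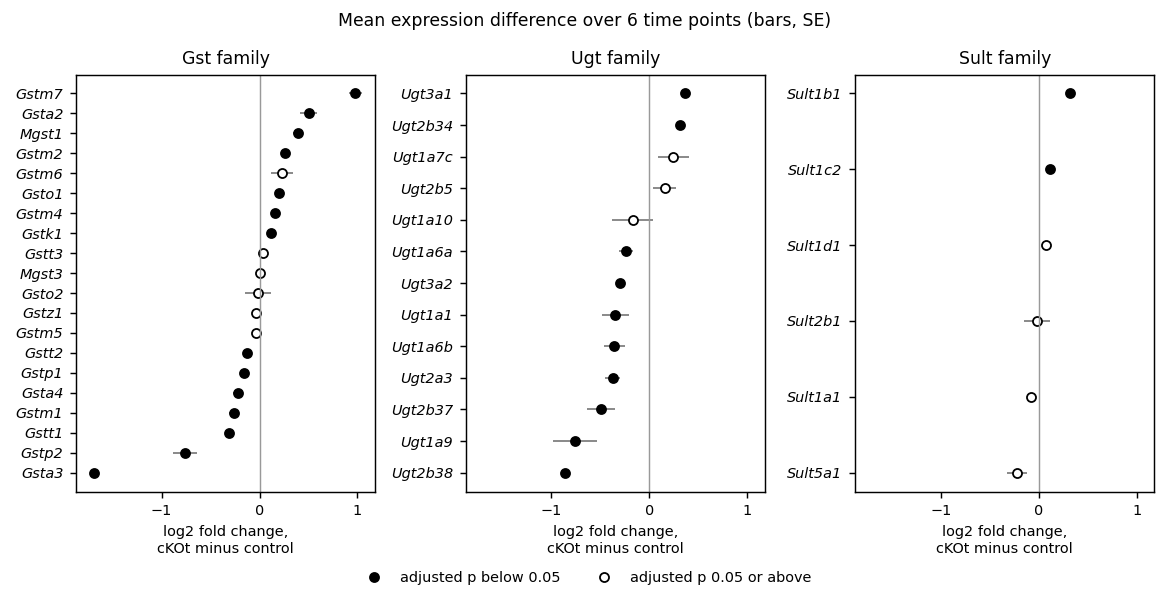
Log2 fold change of mean expression (cKOt minus control, x axis) of the 39 members, one per line, by family. Points are estimates over 6 time points, bars are SE, and filled points passed the test. Gsta3 lay farthest to the left at -1.69 and Gstm7 farthest to the right at 0.98.

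Gsta3 (ENSMUSG00000025934, GRCm38 chr1:21240589-21265661) encodes an alpha-class transferase of glutathione. Its level in the 30 control mice ran from 80.1 to 166 CPM with a median of 109.9, and in the 30 cKOt mice from 24.6 to 45.9 CPM with a median of 32.9. The highest cKOt mouse was below the lowest control mouse. On average the transcript was 3.22-fold lower in cKOt mice. This corresponds to a log2 fold change of -1.69 (SE 0.049, adjusted p = 1.17e-34), and the ranges of the genotypes were apart at all 6 time points. Such a separation at every time point was found for 2 members, Gsta3 and Gstm7, against 1.38% of all genes.

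The difference in Gsta3 ran from -1.41 at ZT8 to -2.03 at ZT16 on the log2 scale (SE 0.12 at both times). In control mice the level at ZT4 was 104, 103, 92.7, 89.0 and 80.1 CPM in the 5 mice, and at ZT16 it was 127, 126, 129, 124 and 112 CPM. In cKOt mice it was 31.2, 32.6, 35.7, 32.0 and 33.2 CPM at ZT4, and 34.1, 28.9, 34.6, 27.8 and 24.6 CPM at ZT16. Thus the control groups at these times did not overlap, whereas the cKOt groups did. ZT4 had the lowest control mean of all times (93.9 CPM), and the overlap of other pairs of times is not given. The interaction of genotype and time did not pass the threshold (adjusted p = 0.072). It passed with a replicate block (adjusted p = 0.0113), but replicate numbers do not pair the mice, so that this block has no basis in the design.

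Gsta2 (chr9:78331018-78355788), another alpha-class transferase, moved the other way from Gsta3. Its level was 108 ± 33.8 CPM in control mice and 151 ± 31.4 CPM in cKOt mice (SD, n = 30). The log2 fold change was 0.50 (SE 0.084, adjusted p = 1.34e-06). At ZT16 the 5 control mice had 68.9, 92.5, 84.2, 93.1 and 95.4 CPM and the 5 cKOt mice had 199, 130, 200, 126 and 104 CPM. All cKOt mice were above all control mice at that time. At ZT0 the groups overlapped fully, with 140 ± 60.0 CPM in control mice, against 148 ± 20.2 CPM with the deletion (SD, n = 5). Within the 6 library batches the difference was above 0 in 5, with a lowest value of -0.029. Of the 150-base windows in its transcripts, 19.6% occur also in transcripts of other genes, mainly Gsta1, so that its count is less certain than that of Gsta3. Gsta4, which favours products of lipid peroxidation, was lower in cKOt mice by a log2 fold change of -0.22 (SE 0.043).

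Of the 6 mu-class members, Gstm7 (chr3:107926334-107931817) showed the largest difference. Its level was between 3.16 and 6.81 CPM in control mice (median 5.18) and between 7.45 and 12.6 CPM in cKOt mice (median 10.3). No cKOt mouse was as low as the highest control mouse. The log2 fold change was 0.98 (SE 0.064, adjusted p = 2.24e-19). Gstm1, the most abundant Gst transcript per kilobase of exon that counting could assign, at 247 CPM per kilobase, fell from 398 ± 50.1 to 330 ± 45.6 CPM, a log2 fold change of -0.26 (SE 0.049). Gstm2 and Gstm4 rose, with log2 fold changes of 0.26 (SE 0.035) and 0.16 (SE 0.042). Gstm5 had 109 ± 12.2 CPM in control mice, against 108 ± 11.1 CPM with the deletion (adjusted p = 0.27), although without the mice numbered 3 it was lower in cKOt mice (log2 fold change of -0.092, adjusted p = 0.00513). Gstm6, under 2 CPM throughout, did not pass the test (adjusted p = 0.072). The sum of the 6 mu-class transcripts was 563 ± 52.6 CPM in control mice, against 506 ± 46.6 CPM with the deletion.

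Gstp2 was low, at 1.62 ± 0.406 CPM in control mice, against 0.955 ± 0.376 CPM with the deletion, and fell by 0.76 on the log2 scale (SE 0.12, adjusted p = 4.98e-07). It shared 35.7% of its 150-base windows with other transcripts, mainly those of Gstp1, its more abundant neighbour, which fell as well (log2 fold change of -0.16, SE 0.034). Among theta-class members, Gstt1 and Gstt2 fell, with log2 fold changes of -0.31 (SE 0.033) and -0.13 (SE 0.039), and Gstt3 did not pass the test. The mitochondrial and peroxisomal Gstk1 rose by a log2 fold change of 0.12 (SE 0.028), Gsto1 of the omega class by 0.20 (SE 0.040) and the microsomal Mgst1 by 0.39 (SE 0.048). Gsto2, Gstz1, which isomerises maleylacetoacetate in tyrosine breakdown, and the microsomal Mgst3 did not pass, with log2 fold changes from -0.035 to 0.0082.

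**Figure D2:**
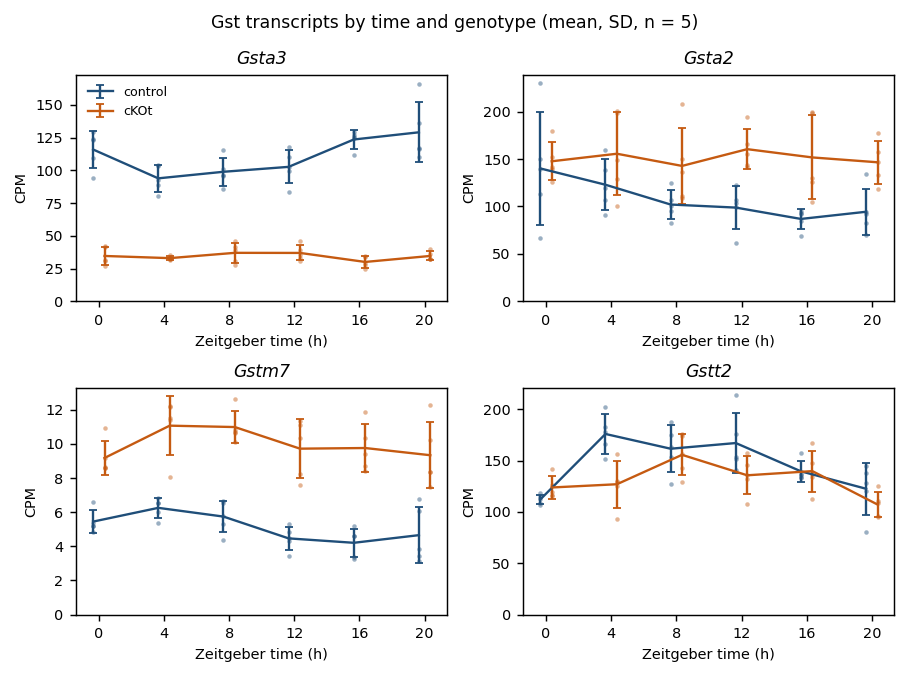
Level of 4 Gst transcripts in CPM (y axis) by Zeitgeber time in hours (x axis) in control (blue) and cKOt mice (orange). Points are single mice, and lines with bars are group means with SD (n = 5). The genotypes were apart at every time for Gsta3 and Gstm7, apart only at ZT12 and ZT16 for Gsta2, and overlapped at every time for Gstt2.

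Over both genotypes, the Ugt family was led by Ugt2b38, Ugt3a2 and Ugt3a1, at 681, 621 and 121 CPM per kilobase of countable exon. The order differed by genotype, since in control mice Ugt2b37 was above Ugt3a1 (134 against 105 CPM per kilobase), and in cKOt mice Ugt3a2 was above Ugt2b38 (560 against 488 CPM per kilobase). Ugt2b38 (ENSMUSG00000061906, chr5:87409942-87424203), of the subfamily that conjugates steroids, bile acids and drugs, ran from 1067 to 2340 CPM in control mice (median 1583) and from 653 to 1278 CPM in cKOt mice (median 898). Of the 30 cKOt mice, 25 lay under the lowest control mouse. The log2 fold change was -0.86 (SE 0.039, adjusted p = 3.29e-26), with values from -0.70 at ZT0 to -1.01 at ZT20 that all passed. Of its 150-base windows, 19.2% occur in other transcripts, mainly those of Ugt2b5, which is much less abundant at 6.32 ± 2.37 CPM in control mice and did not pass (adjusted p = 0.26).

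The Ugt3a enzymes use other sugars, UDP-N-acetylglucosamine or UDP-glucose, in place of UDP-glucuronic acid. Ugt3a2 (chr15:9335550-9370955), the highest member by counts, ran from 1789 to 2685 CPM in control mice (median 2123) and from 1497 to 2177 CPM in cKOt mice (median 1723). It fell by 0.30 on the log2 scale (SE 0.016, adjusted p = 3.42e-23). The related Ugt3a1 (chr15:9276888-9315032) ran from 228 to 394 CPM in control mice (median 272) and from 306 to 487 CPM in cKOt mice (median 355), and rose by a log2 fold change of 0.36 (SE 0.031, adjusted p = 4.82e-15). Both passed at each of the 6 time points, in opposite directions. The same holds of Ugt2b38 (lower), Gsta3 (lower) and Gstm7 (higher). The share of all genes that passed at each of the 6 time points was not counted. At single time points, 8 members passed at ZT0 (12.1% of all genes), 11 at ZT4 (12.5% of all genes), 12 at ZT8 (19.9% of all genes), 13 at ZT12 (21% of all genes), 14 at ZT16 (19.8% of all genes) and 12 at ZT20 (13.8% of all genes).

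**Figure D3:**
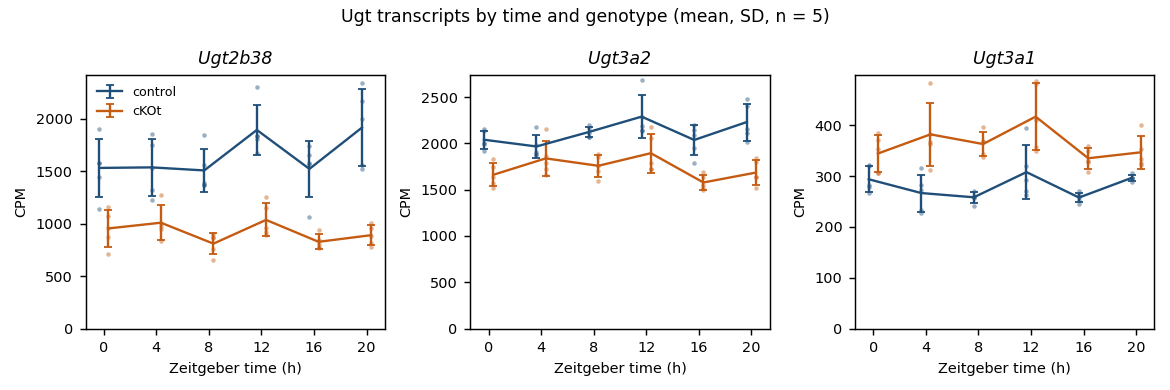
Level of the 3 Ugt transcripts most abundant per kilobase over both genotypes, in CPM (y axis) by Zeitgeber time in hours (x axis) in control (blue) and cKOt mice (orange). Points are single mice, and lines with bars are group means with SD (n = 5). Group means of cKOt mice were below control at every time for Ugt2b38 and Ugt3a2 and above it for Ugt3a1.

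Of the other Ugt2 members, Ugt2b34 rose from 42.7 ± 5.44 to 53.9 ± 8.93 CPM, a log2 fold change of 0.31 (SE 0.039, adjusted p = 1.4e-09). Ugt2a3 fell by 0.37 on the log2 scale (SE 0.075). Ugt2b37, picked out after its values were seen, fell from 253 ± 107 to 183 ± 73.6 CPM, by 0.49 on the log2 scale (SE 0.14, adjusted p = 0.0038). It differed widely between mice of one group, and the call was lost without the mice numbered 4 (log2 fold change of -0.38, adjusted p = 0.0538). The sum of the 5 Ugt2 transcripts was 1957 ± 375 CPM in control mice, against 1168 ± 205 CPM with the deletion, of which Ugt2b38 made 84.5% and 78.9%.

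The Ugt1a transcripts of chromosome 1 have first exons of their own and share the exons that follow, so that 49.1% to 65.4% of their 150-base windows occur also in other transcripts. Reads in shared exons were not assigned to a gene by the counting, and the values rest on exon bases of a single gene. These were 1915 bases for Ugt1a7c and 2142 for Ugt1a6a, against 879 to 949 for the others. Ugt1a7c is annotated up to base 88220002, past the ends of the others (88218997 to 88219004). Its value thus does not rest on its first exon alone, and whether reads of other Ugt1a transcripts were counted there was not tested. Ugt1a9, Ugt1a6a, Ugt1a6b and Ugt1a1 were lower in cKOt mice. Ugt1a6a fell by 0.23 on the log2 scale (SE 0.070), Ugt1a6b by 0.36 (SE 0.11), and Ugt1a1, the bilirubin enzyme, by 0.35 (SE 0.14) at levels under 2 CPM.

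Ugt1a10 and Ugt1a7c were picked out after their values were seen, because their levels and that of Ugt1a9 differed strongly between mice of one group. The median coefficient of variation within groups was 42.1% for Ugt1a7c, 36.4% for Ugt1a9 and 34.4% for Ugt1a10, against a median of 11.1% for 13781 genes with a mean of at least 1 CPM. Ugt1a10 was 0.583, 0.696 and 1.38 CPM in 3 control mice, replicates 3 and 1 at ZT8 and replicate 2 at ZT4. It was 9.14 CPM in 1 cKOt mouse, replicate 2 at ZT8. The other 56 mice had 26.6 CPM or more, up to 77.5 CPM. In those 4 mice Ugt1a9 was at most 0.0580 CPM, the lowest values of all 60 kidneys, and Ugt1a6b was lowest as well, at 1.48, 1.57, 2.05 and 2.497 CPM.

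Ugt1a7c went the other way, with 269, 292, 251 and 293 CPM in the same 4 mice, its highest values of all. The sum of the 6 Ugt1a transcripts was 275, 299, 259 and 308 CPM in these mice, against 194 ± 39.6 CPM over all control mice and 207 ± 36.6 CPM over all cKOt mice. Slco4c1, a transporter gene on the same chromosome that belongs to the list of conjugate carriers below, was 25.0, 45.4, 49.8 and 44.6 CPM in the same mice, against medians of 7.40 CPM over control mice and 24.6 CPM over cKOt mice. Among the other mice, 23 had Ugt1a10 below 45 CPM, a limit set after the values were seen, with Ugt1a7c between 119.6 and 212 CPM. They were 7 control and 16 cKOt mice. The remaining 33 mice, 20 control and 13 cKOt, had Ugt1a7c between 61.6 and 127 CPM. The genotypes were thus unevenly spread over these ranges, and the part of this in the genotype differences of the Ugt1a transcripts was not tested.

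For Ugt1a9 the means were 15.5 ± 7.25 CPM in control mice, against 9.37 ± 4.35 CPM with the deletion. The log2 fold change was -0.76 (SE 0.22, adjusted p = 0.0040). It was -0.33 by limma (adjusted p = 0.536) and -0.58 without the mice numbered 4 (adjusted p = 0.084), and passed in neither. Within library batches it was below 0 in 3 of 6. Ugt1a10 did not pass (log2 fold change of -0.17, adjusted p = 0.53), nor did Ugt1a7c (0.25, adjusted p = 0.18). The 4 mice stand out by these same transcripts, and 3 of them are controls. Leaving them out therefore fixes the direction in which the differences move. Counts of differing members without them are given at the end, and support nothing about the Ugt1a transcripts.

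**Figure D4:**
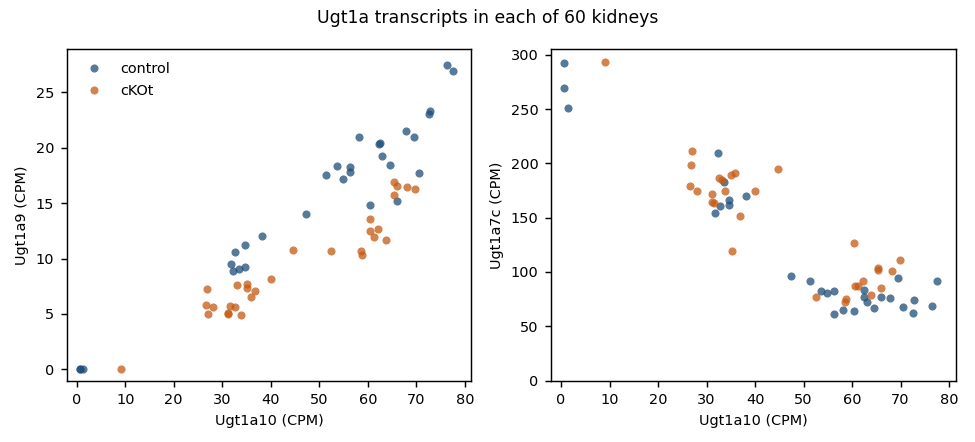
Ugt1a9 (left, y axis) and Ugt1a7c (right, y axis) against Ugt1a10 (x axis), all in CPM, in 60 kidneys of control (blue) and cKOt mice (orange), one point per mouse. Of the mice, 4 lay at or under 9.14 CPM of Ugt1a10 and none from there to 26.6 CPM, 23 lay between 26.6 and 44.7 CPM, mostly cKOt, and 33 lay from 47.4 CPM upwards.

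The Sult family was led by Sult1d1 (chr5:87554645-87569027), which conjugates catecholamines and other phenols, with 301 CPM per kilobase, followed by Sult1c2 with 52.4 CPM per kilobase. Sult1d1 ran from 524 to 1044 CPM in control mice (median 712) and from 509 to 1011 CPM in cKOt mice (median 755). Its log2 fold change of 0.075 (SE 0.036) did not pass (adjusted p = 0.0795). Sult1c2 rose from 92.4 ± 11.9 to 101 ± 13.3 CPM, a log2 fold change of 0.12 (SE 0.035, adjusted p = 0.0045), and the call was lost without the mice numbered 3 (adjusted p = 0.0756). Sult1b1 rose by a log2 fold change of 0.32 (SE 0.050), from 4.89 ± 0.931 to 6.24 ± 1.16 CPM. Sult1a1, Sult2b1, which sulfates cholesterol, and Sult5a1 did not pass.

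Summed over a family, Gst transcripts made 1659 ± 85.1 CPM in control mice, against 1549 ± 91.9 CPM with the deletion, and Ugt transcripts 4546 ± 544 and 3475 ± 409 CPM. The summed Sult transcripts were 829 ± 110 and 889 ± 114 CPM, of which Sult1d1 made 86.3% and 86.2%. In the Ugt sum, 12 of 30 cKOt mice were below the lowest control mouse.

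To ask whether the enzymes followed the time of day, the groups of each genotype were tested for variation between time points. In control mice, 7 members varied (Gsta2, Gsta3, Gstm4, Gstm7, Gstt2, Gstt3 and Sult1a1), against 30.6% of all genes. In cKOt mice, 6 varied (Gsto1, Gstt2, Gstt3, Sult1a1, Ugt2a3 and Ugt3a2), against 26.6% of all genes. No member had an interaction of genotype and time at an adjusted p below 0.05 by edgeR (3.08% of all genes) or by limma. At an unadjusted p below 0.05 by edgeR, 8 members had one, a count that was not set against that of all genes. With a block on replicate numbers, which do not pair the mice, 1 member had one, Gsta3. With models of a 24 h rhythm, assigned at a weight of the Bayesian information criterion of at least 0.65, 8 members were rhythmic in control mice (33.9% of all genes) and 7 in cKOt mice (31% of all genes). Rhythmic in control mice were 6 Gst members, 1 Ugt and 1 Sult member. The rhythm was lost in cKOt mice in 2 members, Gsta2 and Gsta3, against 6.25% of all genes. Amplitudes below are from the trough to the peak of the fitted curve, on the log2 scale.

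Gsta3 had an amplitude of 0.46 in control mice, with its peak at ZT19.0, and of 0.12 in cKOt mice (weight of the lost rhythm 0.96). Gsta2 had an amplitude of 0.54 with its peak at ZT2.58 in control mice and 0.050 in cKOt mice (weight 0.72), and was assigned to no model without the mice numbered 1, 2 or 4 (weights of 0.426, 0.493 and 0.311). Gsta4, Gstm4, Gstt2, Gstt3 and Ugt2b34 were assigned to the same rhythm in both genotypes. Gstt2 had the largest amplitude of these in control mice, 0.59 with its peak at ZT9.19, and 0.41 with its peak at ZT9.15 in cKOt mice. Its group mean in control mice was 112 ± 4.53 CPM at ZT0 and 176 ± 19.2 CPM at ZT4 (SD, n = 5), and the assignment was lost without the mice numbered 2 (weight 0.521). Ugt2b34 had an amplitude of 0.16 in control mice, and its assignment was lost without the mice numbered 1, 2, 4 or 5 (weights from 0.149 to 0.523) and without the sample marked in the study's table of samples (weight 0.59).

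Sult1a1 (ENSMUSG00000030711, chr7:126672865-126676432), which sulfates phenolic drugs and hormones and carries a D-box core in the promoter shown above, had the largest amplitude of the rhythmic members. In control mice it was 0.78 with the peak at ZT12.8, and in cKOt mice 0.70 with the peak at ZT14.9. The 5 control mice had 10.4, 9.86, 11.9, 9.56 and 11.7 CPM at ZT4 and 18.5, 19.1, 21.9, 17.6 and 17.5 CPM at ZT12. The 5 cKOt mice had 9.70, 9.87, 8.83, 7.82 and 9.34 CPM at ZT4 and 19.1, 16.6, 16.9, 17.9 and 16.9 CPM at ZT12. In both genotypes every mouse at ZT12 was above every mouse at ZT4. At ZT8 the level was lower in cKOt mice, with 12.0 ± 1.75 against 15.4 ± 1.57 CPM (log2 fold change of -0.34, SE 0.098, adjusted p = 0.00847). The model of an altered rhythm had a weight of 0.658, near the limit, and was lost without the mice numbered 4 or 5 (weights of 0.181 and 0.355), and the interaction did not pass (adjusted p = 0.21). Sult5a1, at about 1 CPM, was assigned a rhythm in cKOt mice only (weight 0.77), with an amplitude of 0.66 there and 0.16 in control mice, and lost it without the mice numbered 3 or 5 (weights of 0.642 and 0.333).

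**Figure D5:**
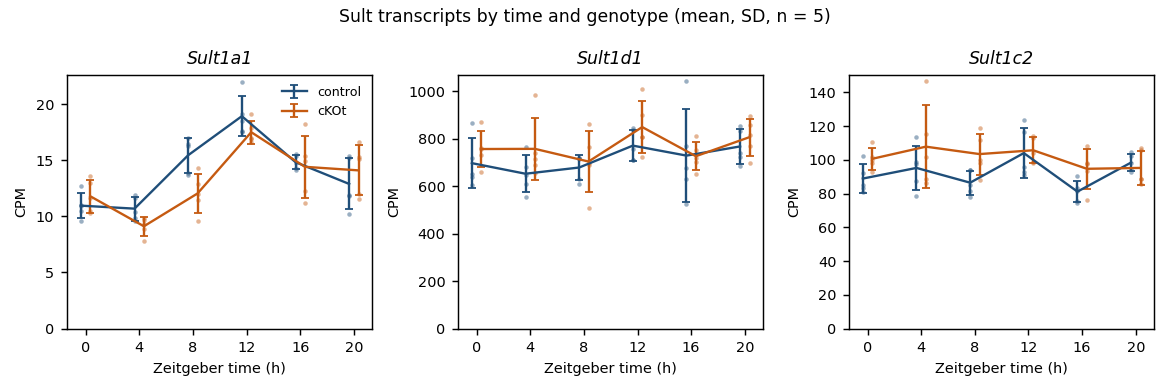
Level of 3 Sult transcripts in CPM (y axis) by Zeitgeber time in hours (x axis) in control (blue) and cKOt mice (orange). Points are single mice, and lines with bars are group means with SD (n = 5). Sult1a1 was highest at ZT12 in both genotypes, at 18.9 and 17.5 CPM.

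The genes that feed the enzymes were compared in the same way. Of 12 tested genes of glutathione supply and of the mercapturate route, which processes glutathione conjugates, 2 rose and 9 fell. Cndp2, a dipeptidase, fell by 0.95 on the log2 scale (SE 0.049), from 1946 ± 347 to 997 ± 151 CPM. Nat8, which acetylates cysteine conjugates to mercapturates, fell by 0.76 (SE 0.043), Acy1, an aminoacylase, by 0.65 (SE 0.036) and Kyat1, a cysteine conjugate lyase, by 0.49 (SE 0.034). Of 5 genes of the supply and removal of glucuronic acid, 2 rose and 3 fell, with the largest change in Gusb, the lysosomal beta-glucuronidase, which fell by 1.08 (SE 0.081), from 116 ± 33.2 to 54.9 ± 8.29 CPM. Of 10 tested genes of sulfate and PAPS, 2 rose and 3 fell, none by 1.2-fold.

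Of 9 carriers of conjugates, 4 rose and 3 fell. Slc22a8, the organic anion transporter OAT3, fell by 0.97 (SE 0.061), and Slc22a6, which encodes OAT1, by 0.27 (SE 0.031). Abcc3 rose by a log2 fold change of 0.65 (SE 0.076), and Slco4c1 by 1.19 (SE 0.19), with a spread between mice described above for chromosome 1. Of 13 other conjugation enzymes and partner enzymes, 3 rose and 6 fell. Among the conjugation enzymes, Inmt, a methyltransferase, fell by 1.02 (SE 0.051) and Glyat, which conjugates glycine, by 0.56 (SE 0.024). Among the partner enzymes, Por, the electron donor of cytochromes P450, fell by 0.61 (SE 0.025) and Ephx2 by 0.58 (SE 0.027). Of 19 regulators, 5 rose and 8 fell. Nfe2l2, named for its role and not by the rule, rose by a log2 fold change of 0.19 (SE 0.027). In the mean over time points, Dbp fell by 1.45 (SE 0.096) and Tef by 0.57 (SE 0.037), whereas Hlf, named with them, did not pass. Each of these had an interaction of genotype and time by edgeR (adjusted p = 2.13e-10, 2.08e-09 and 0.000479 for Dbp, Tef and Hlf). Their fitted amplitudes were 5.50, 1.51 and 0.68 in control mice and 2.89, 0.45 and 0.21 in cKOt mice. Hlf was assigned to no rhythm model. Nr1i2, the xenobiotic receptor PXR, rose by 0.65 (SE 0.063), and Nr1i3, the receptor CAR, fell by 0.85 (SE 0.20) at levels under 2 CPM. The share of these changes in those of the members was not tested.

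Markers of other cells moved as follows. The summed level of 8 markers of the proximal tubule, of which 3 rose and 4 fell, ran from 39880 to 58305 CPM in control and from 36084 to 47146 CPM in cKOt mice. Most of that sum was Kap, with a mean of 30782.5 of 45325 CPM in control and 27604.8 of 41031 CPM in cKOt mice. The 4 markers of the endothelium and the 4 of fibroblasts were all lower in cKOt mice, with median log2 fold changes of -0.11 and -0.23. Of 5 macrophage markers, 4 were lower (median of -0.22), with a summed level between 60.1 and 108.7 CPM in control and between 67.0 and 108.4 CPM in cKOt mice. Of 4 markers of the S3 segment of the proximal tubule, 2 were higher and 1 lower (median of 0.25). The log2 fold change was 0.69 for Slc5a10, 0.48 for Cyp7b1 and -0.37 for Slc7a13, the most abundant of the 4. Slc22a7 did not pass (log2 fold change of 0.011). The summed level of the 4 averaged 1635.5 CPM in the controls, against 1583.8 CPM with the deletion. Of 4 markers of the thick ascending limb, 2 were higher and 1 lower, of 3 of the distal convoluted tubule, 2 were higher, and of 6 of the collecting duct, 3 were higher and 2 lower. Of 4 hepatocyte markers, 2 fell, among them Alb, from 8.18 ± 2.30 to 1.11 ± 0.602 CPM. Their part in the results of the enzymes was not tested.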

How the data were processed

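Kidney RNA of 60 mice was sequenced as single reads from stranded poly(A) libraries. Per the labels and the submitters' processing notes, reads were trimmed with cutadapt (version 1.8), aligned to GRCm38 with STAR (version 2.5.3a) and counted with HTSeq (version 0.9.1). The deposited values are raw counts per Ensembl gene, without pooling. Genes with at least 1 CPM in 1 sample were kept. Differences were tested with edgeR (version 4.0.16, R version 4.3.3), with TMM scaling, 12 groups, 2 RUVs factors and the quasi-likelihood F test, adjusted by Benjamini and Hochberg (threshold 0.05). Rhythms were chosen among 5 models with a period of 24 h on corrected logCPM values (prior count 2). Scripts were tested on simulated data. Symbols and positions are those of GENCODE mouse release M21, with overlap between transcripts taken from shared windows of 150 bases in place of protein identity. Counts limit the precision of low genes. Named were members that differed by at least 1.5-fold, had an interaction or an altered, lost or gained rhythm, the 3 most abundant per kilobase and the largest shared rhythm of each family, and genes of the other lists by a fold of at least 1.2. Members and lists were chosen with earlier results of these data known. P values set a difference against the spread between the mice kept in one group that remains after the 2 RUVs factors. Since the study kept mice in part by nearness to their group, that spread may be smaller than among all mice taken.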

Additional observations from a re-analysis of the deposited data

Results flagged for a closer look

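Of 192 groups of 5 mice of the 16 members chosen by rule, 12 held a mouse far from the others, and chance gives about 1 in 20 such groups where groups are independent. They were not, since the 12 cases came from 8 mice, of which 4 stood apart for 2 members each. These were the control mouse numbered 1 at ZT0 (Gstm1 and Ugt1a9), the control mouse numbered 4 at ZT12 (Ugt2b38 and Ugt3a2), the control mouse numbered 1 at ZT16 (Gstt2 and Ugt2b38) and the cKOt mouse numbered 5 at ZT4 (Gstm7 and Sult1d1). Gsta3 was low in 1 control mouse at ZT16, at 111.6 CPM against 124.4 to 129.3 CPM in the others. Gstm1 was high in 1 control mouse at ZT0, at 510.3 CPM against 362 to 398 CPM. Gstm7 stood apart in 1 cKOt mouse at each of 3 times, at 10.91 CPM against 8.58 to 9.17 CPM at ZT0, at 8.053 CPM against 11.4 to 12.2 CPM at ZT4 and at 12.65 CPM against 10.1 to 10.8 CPM at ZT8. Gstp2 was 2.924 CPM in 1 control mouse at ZT0, with the others from 1.33 to 1.74 CPM. Gstt2 was 157.4 CPM in 1 control mouse at ZT16, with the others from 133.1 to 136.7 CPM. Sult1d1 was 983.9 CPM in 1 cKOt mouse at ZT4, above 656.6 to 740.8 CPM. Ugt1a9 was 8.886 CPM in 1 control mouse at ZT0, below 17.7 to 20.9 CPM. Ugt2b38 was 2303 CPM in 1 control mouse at ZT12, above 1680 to 1842 CPM, and 1067 CPM in 1 control mouse at ZT16, below 1575 to 1746 CPM. Ugt3a2 was 2685 CPM in 1 control mouse at ZT12, above 2139 to 2288 CPM. The study had kept mice in part by nearness to their group, so that the figure given for chance may not hold.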

How the results depend on the processing

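Of 300 log2 fold changes of 20 genes (the 16 members chosen by rule, Ugt1a10, Ugt1a7c, Ugt2b37 and Arntl) recomputed under the alternatives, 284 kept direction and side of the threshold, 4 lost the call, 11 gained one and 1 turned, that of Ugt1a10 with limma (0.2296). With a fold change above 1.2, the differing members fell to 6 in the Gst and 1 in the Sult family. With library batch in place of RUVs factors, 4 Sult members differed. Leaving out the mice of 1 replicate number in turn gave 1 to 4 differing Sult members, 4 to 8 members varying over time in control and 3 to 8 in cKOt mice, and 4 to 8 members rhythmic in cKOt mice. The lowest of these counts came without number 3 (Sult, and time in cKOt mice), number 4 (time in both genotypes) and number 5 (rhythms). Without RUVs correction, 5 members were rhythmic in control and 4 in cKOt mice, at a weight of 0.8, 4 and 3 were, and at a weight of 0.5, 12 and 10 were. Replicate numbers do not pair the mice, since residuals correlated by 0.0043 between groups for the same number and by -0.0010 otherwise. With a replicate block, 1 member had an interaction, Gsta3 (adjusted p = 0.0113). Leaving out the 4 mice with the lowest Ugt1a10, an alternative chosen after seeing the data, gave 14 Gst, 12 Ugt and 3 Sult members that differed. The added Ugt members were Ugt1a10 and Ugt1a7c, whose values chose those mice, and support nothing. This alternative is among those counted in the 300 fold changes above. The causes were not tested. Members near 1 CPM rest on few counts, down to 3 in a library for Gstp2 and 8 for Sult5a1, and a difference there can go undetected at this depth.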
